A study of Homo sapiens with 4 samples.

Results

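The miRNAs described here are 8 that are typical of epithelial cells, out of 377 human miRNA assays on a TaqMan array card: the 5 members of the miR-200 family (hsa-miR-200a, hsa-miR-200b, hsa-miR-200c, hsa-miR-141 and hsa-miR-429) and hsa-miR-203, hsa-miR-205 and hsa-miR-375. They were taken by assay name, with no threshold on a measured value. All 8 were on the card, with 1 well each per sample. The samples were RPMI8226, an established human cell line from multiple myeloma, a cancer of antibody-producing plasma cells, and the exosome fraction of its medium. Each was taken after 24 h in AIM-V medium at 20% oxygen (normoxia) or 1% oxygen (hypoxia), which gives 4 groups of 1 sample. No group has a replicate, so no value below has a replicate error, no test was made, and no p-value is given.

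The miR-200 family keeps epithelial cells epithelial: its members repress the transcription factors ZEB1 and ZEB2, which in turn silence E-cadherin, and the ZEB factors repress the miR-200 genes. miR-203 promotes the differentiation of skin keratinocytes, miR-205 is typical of stratified and glandular epithelia and also represses the ZEB factors, and miR-375 is best known from pancreatic islet cells. These miRNAs are usually low in blood lineages, to which a myeloma line belongs. Exosomes are small vesicles that cells release. The precipitation used here collects vesicles together with other material from the medium.

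The mature sequences are shown because the family falls into sets that differ at 1 base of the seed, and because near-identical members could be read by each other's assay. The seed, bases 2 to 8 from the 5′ end, is in capitals. The sequences are from RefSeq (GRCh38.p14), where all 8 names were matched. The deposited table names no arm, and the arm that the older name stands for was used.
hsa-miR-200b: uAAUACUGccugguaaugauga
hsa-miR-200c: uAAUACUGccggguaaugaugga
hsa-miR-429: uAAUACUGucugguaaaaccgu
hsa-miR-200a: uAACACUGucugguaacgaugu
hsa-miR-141: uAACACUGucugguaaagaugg
hsa-miR-203: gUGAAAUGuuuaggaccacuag
hsa-miR-205: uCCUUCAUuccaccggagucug
hsa-miR-375: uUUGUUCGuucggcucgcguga

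Counted from the 5′ end, the seed of miR-200b differs from that of miR-200a by U4C. Within a seed set, miR-200b and miR-200c differ at 2 of 22 positions (U11G and A22G, besides the extra base at the end of miR-200c), and miR-200a and miR-141 also differ at 2 of 22 (C17A and U22G). miR-429 differs from miR-200b at 6 positions, all outside the seed. In the RefSeq table no other mature human miRNA carries the seed of miR-200b, miR-200c and miR-429, and none other than miR-141 carries that of miR-200a. The seeds of miR-203, miR-205 and miR-375 each occur once there.

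The family lies in 2 genomic clusters, and each cluster holds both seeds. In GRCh38.p14, mature miR-200b (chr1:1167160-1167181), miR-200a (chr1:1167916-1167937) and miR-429 (chr1:1169055-1169076) lie on the plus strand of chromosome 1 within the non-coding gene MIR200BHG, and 1895 bases separate the starts of the first and the last. miR-200c (chr12:6963742-6963764) and miR-141 (chr12:6964155-6964176) lie 413 bases apart on the plus strand of chromosome 12 within MIR200CHG. miR-205 (chr1:209432166-209432187) lies within MIR205HG, miR-203 (chr14:104117469-104117490) overlaps MIR203B on the other strand, and miR-375 (chr2:219001648-219001669, minus strand) lies in no other gene of the RefSeq table. Exons and introns were not assigned here.

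The values are threshold cycles (Ct), the PCR cycle at which a well's signal crosses a threshold: a lower Ct means more template, and 1 cycle stands for a doubling at full efficiency. A value of 35, the highest in the table, was read as not detected. Under Ct 35 there were 155 to 162 assays in the cell samples and 219 to 221 in the exosome samples, whose products had been pre-amplified, so a Ct in cells and one in the exosome fraction are not on 1 scale. Of 757 values under 35, 63.4% lay within 0.1 of a whole cycle, and among the members 16 of 26 values did. The part of this in the differences below was not tested. U6, the control RNA for cells, had a Ct of 18.82 ± 0.15 at 20% and 18.81 ± 0.12 at 1% oxygen (SD, n = 4 wells of 1 sample), the only repeat measurement. The spike-in for the exosome fraction, ath-miR159, stood at 22.94 and 22.99.

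In the myeloma cells 6 of the 8 epithelial miRNAs were seen, each at both oxygen levels: miR-200a, miR-200b, miR-200c, miR-429, miR-203 and miR-205. Of all assays, 39.0% were seen in both cell samples. In the exosome fraction 7 of 8 were seen, again each at both oxygen levels, against 53.8% of all assays. Seen in all 4 samples were 5 of the 8, against 36.6% of all assays. miR-141 and miR-375 were seen in the exosome fraction only, a pattern of 13.3% of all assays. miR-200c was seen in cells only, which held for 7 assays in all, or 1.86%. Within the cluster on chromosome 12, miR-200c was recorded in cells and not in the exosome fraction, and miR-141 the reverse. The absence of miR-141 in cells shows little. At the median difference between compartments its cell Ct would have been 37.5 and 36.3, beyond the ceiling. The cluster on chromosome 1 was seen whole in every sample.

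**Figure D1:**
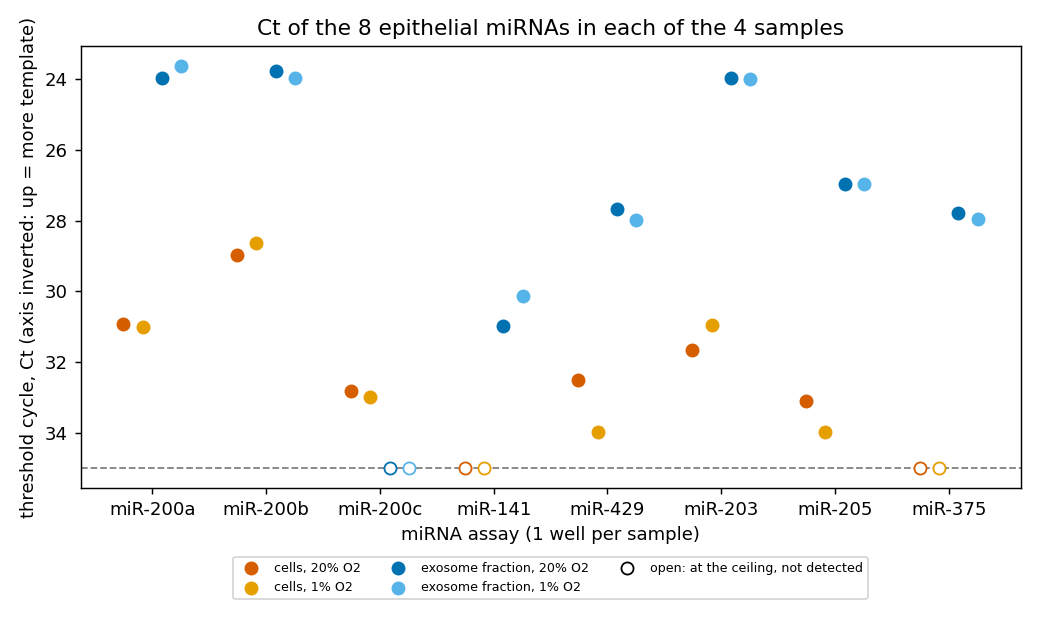
Threshold cycle (Ct, vertical axis, inverted so that more template is higher) of each of the 8 miRNAs in the 4 samples, 1 point per well; open points on the dashed line are at the ceiling of 35. miR-200b has the lowest Ct in both cell samples, miR-200c is open in the exosome fraction, and miR-141 and miR-375 are open in cells.

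miR-200b, of the chromosome 1 cluster, had the lowest Ct of the members in cells, 28.96 at 20% and 28.64 at 1% oxygen. It ranked 42 of 162 and 38 of 155 detected assays. Its neighbour miR-200a stood at 30.91 and 30.997, close to the median of the detected assays (31.12 and 30.99). The third gene of the cluster, miR-429, was at 32.51 and 33.97. Assays differ in efficiency, so the order of Ct values is an order of signals and not of molecule numbers.

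miR-200c was at Ct 32.82 and 32.99 in the 2 cell samples. The other epithelial miRNAs in cells were miR-203, at 31.67 and 30.95, and miR-205, at 33.10 and 33.98. At 20% oxygen the order after miR-200b was miR-200a, miR-203, miR-429, miR-200c and miR-205, and at 1% it was miR-203, miR-200a, miR-200c, miR-429 and miR-205. At 1% oxygen miR-203 and miR-200a differed by 0.05 cycles and miR-429 and miR-205 by 0.01, less than the SD between U6 wells. That SD comes from 1 RNA at Ct 18.8, and no spread was measured at these higher Ct values. Each of these values also lay within 0.1 of a whole cycle. With detection set at Ct under 32, 3 members were left in each cell sample (miR-200a, miR-200b and miR-203) and all 7 in each exosome sample. Of all 377 assays, 99 and 105 were under Ct 32 in cells at 20% and 1% oxygen. In the exosome fraction 185 and 187 were.

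In the exosome fraction 3 members had nearly the same Ct. miR-200b was at 23.77 and 23.98, miR-200a at 23.95 and 23.63, and miR-203 at 23.97 and 23.98 at 20% and 1% oxygen. They ranked between 57 and 71 of the 221 and 219 detected assays. The neighbours miR-200a and miR-203 at 20% oxygen, and miR-200b and miR-203 at 1%, lay within 0.02 cycles of each other. These tied values were all within 0.1 of a whole cycle. So were 61.1% of all exosome values under 35 at 20% oxygen and 67.1% at 1%. Close Ct values are therefore not read as alike levels, and the part of this clumping was not tested. A second set followed about 3 to 4 cycles later: miR-205 at 26.96 and 26.97, miR-429 at 27.66 and 27.97, and miR-375 at 27.77 and 27.95. miR-141 came last, at 30.98 and 30.12.

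As a check of the labelled cell type, 7 of 8 miRNAs typical of blood and lymphoid cells were seen in both cell samples and all 8 in both exosome samples, against 39.0% and 53.8% of all assays. These counts are close to those of the epithelial members (6 and 7 of 8). miR-142-3p, a marker of all blood lineages, had the lowest Ct of that list in cells, at 24.95 and 24.97, below every epithelial member. miR-142-5p, however, was at 31.79 and 31.97, a higher Ct than miR-200a, miR-200b and miR-203. miR-146a (25.95 and 25.71) also lay below every epithelial member, and miR-150 (29.82 and 28.96) below all but miR-200b. miR-342-3p was not detected in cells at either oxygen level. In cells, miR-155 (31.67 and 30.97) and miR-181a (31.20 and 30.97) had Ct values like those of miR-200a and miR-203, and miR-223 (31.71 and 31.94) had higher ones.

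The cells and the exosome fraction were then compared per miRNA. Over the 138 assays seen in all 4 samples, the Ct in cells exceeded that in the exosome fraction by a median of 6.51 cycles at 20% and 6.15 at 1% oxygen, and the middle 95% lay between 2.27 and 9.36 and between 2.09 and 9.03. All 5 members seen in all 4 samples fell inside these ranges. The difference was 7.70 and 6.97 cycles for miR-203, 6.95 and 7.37 for miR-200a, 6.14 and 7.005 for miR-205, 4.85 and 5.999 for miR-429, and 5.20 and 4.66 for miR-200b. miR-203 and miR-200a were thus above the median assay at both oxygen levels and miR-200b and miR-429 below it, while miR-205 was below it at 20% and above it at 1% oxygen. With the assays under Ct 32 alone as the scale, miR-429 at 1% oxygen had a log2 difference of 0.01. miR-200b sat at percentile 23.2 and 18.1 of the assays, miR-203 at 80.4 and 65.2, and miR-200a at 60.1 and 81.2.

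With each sample centred on its own median Ct over those 138 assays, miR-200b was 3.37-fold lower in the exosome fraction than in cells at 20% oxygen and 5.02-fold lower at 1%. On this scale miR-429 was 4.30-fold and 1.98-fold lower in the exosome fraction, and miR-205 1.75-fold lower and 1.01-fold higher. The ratio of exosome fraction over cells was 1.00 and 1.31 for miR-200a, and 1.68 and 0.99 for miR-203. The scale does not put the middle assay at 0: the median over the 138 assays was -0.61 on the log2 scale. Against the median assay, a scale added after seeing the data, miR-200b was 2.48-fold and 2.82-fold lower. None of the 5 was at least 4-fold above cells at both oxygen levels, against 2.90% of all assays, and none at least 4-fold below at both, against 16.7%.

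The ratio between 2 members of 1 sample needs no control RNA, so it can be set across compartments directly. In cells miR-200a came 1.94 and 2.36 cycles after its cluster neighbour miR-200b, and in the exosome fraction 0.19 cycles after and 0.35 cycles before it. The ratio of miR-200a to miR-200b was therefore 3.38 times higher in the exosome fraction at 20% and 6.55 times higher at 1% oxygen. miR-203 against miR-200b behaved alike in size, at 5.66 and 4.97 times. The ratio of miR-429 to miR-200b was 0.78 and 2.53 times that in cells, which changes direction between the oxygen levels. Since only the exosome samples were pre-amplified, compartment and pre-amplification cannot be told apart.

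**Figure D2:**
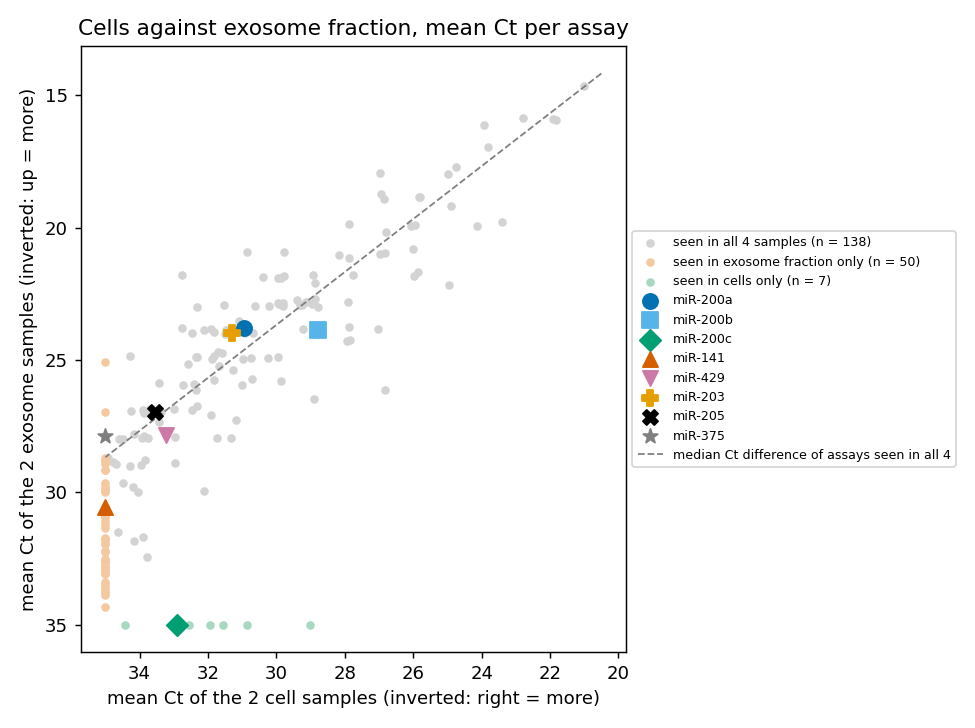
Mean Ct of the 2 cell samples (horizontal) against mean Ct of the 2 exosome samples (vertical) for assays seen in all 4 samples, in the exosome fraction only or in cells only, with both axes inverted and the ceiling at 35; the dashed line marks the median Ct difference. miR-200a and miR-203 lie above the line, miR-200b and miR-429 below it, miR-205 closest to it, and miR-200c on the lower edge.

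The 3 members seen in only 1 compartment differed in what their absence shows. At the median difference between compartments, miR-200c would have had a Ct of 26.3 at 20% and 26.8 at 1% oxygen in the exosome fraction, and both wells were at 35. Its bound against the median assay was at least 413-fold and at least 286-fold lower in the exosome fraction than in cells, each from 1 well per sample. Only the exosome samples were pre-amplified, so here too compartment and pre-amplification cannot be told apart. The bound is one of signal and not of molecule numbers. With each sample's own median as the scale it was at least 561-fold and 509-fold, and with the median over assays under Ct 32 at least 335-fold and 256-fold. Of 23 assays with a Ct between 32 and 34 in both cell samples, 21 were seen in both exosome samples, and only miR-200c and miR-23b were at the ceiling in both. The 7 assays seen in cells only also included let-7a, let-7f and miR-103, at cell Ct values from 28.99 to 31.92.

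miR-375 would have been expected at Ct 34.3 and 34.1 in cells, just under the ceiling. Its bound was at least 1.65-fold and 1.86-fold higher in exosomal than in cellular RNA against the median assay, and at least 1.22-fold and 1.04-fold with each sample's own median as the scale. Of 10 assays with a Ct between 27 and 28 in both exosome samples, 8 were seen in both cell samples, and miR-375 was the only one at the ceiling in both. Among these 10, miR-579 was at the ceiling in hypoxic cells and at 33.91 in normoxic cells. In mean exosome Ct miR-375 ranked 3 of the 50 assays seen in the exosome fraction only.

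miR-141 would have been expected at Ct 37.5 and 36.3 in cells, beyond the ceiling, so no fold between compartments can be given for it. Of 7 assays with a Ct between 30 and 31 in both exosome samples, none was seen in both cell samples and 6 were at the ceiling in both. An absent cell signal was thus common to assays with an exosome Ct like that of miR-141. These Ct windows were chosen after the values were seen.

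The first oxygen comparison asked what differed in the cells under hypoxia. Log2 changes were normalized to the mean of the U6 wells. miR-429 was 2.76-fold lower in hypoxic cells, the second lowest of 147 assays seen in both samples, at Ct 32.51 and 33.97. miR-205 was 1.84-fold lower (Ct 33.10 and 33.98), and miR-203 1.64-fold higher (Ct 31.67 and 30.95). miR-200b was 1.25-fold higher, miR-200a 1.07-fold lower and miR-200c 1.13-fold lower. These last 3 log2 changes, 0.32, -0.10 and -0.18, were no larger in size than the median absolute change of 0.32 over all assays.

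Of the 6 members measured in cells, 1 was at least 2-fold lower, against 6.12% of all assays, and none at least 2-fold higher, against 7.48%. Their median log2 change was -0.14, against 0.03 for all 147 assays. The median absolute change was 0.51 for the members. In the cluster on chromosome 1 the neighbours did not move alike: the log2 changes were 0.32 for miR-200b, -0.10 for miR-200a and -1.47 for miR-429. With RNU44 and RNU48 as normalizers miR-205 also passed 2-fold (-1.03). The 2 members with the largest fall, miR-429 and miR-205, were also the 2 with the highest Ct in hypoxic cells, about 1 cycle under the ceiling. The hypoxic Ct enters both values, so this overlap is partly built in. In normoxic cells miR-205 (33.10) and miR-200c (32.82) had the highest Ct, and miR-429 stood at 32.51.

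The same comparison was made in the exosome fraction, with the spike-in as normalizer. No member was past 2-fold: none of 7 was at least 2-fold higher, against 3.94% of 203 assays, and none at least 2-fold lower, against 3.45%. At 1% oxygen miR-141 was higher by 1.88-fold (Ct 30.98 and 30.12), rank 9 of 203, and was past 2-fold when the sample's median Ct served as normalizer (log2 change 1.11). miR-200a was 1.30-fold higher. The log2 changes of miR-203 and miR-205 were both 0.04, miR-429 had -0.25, and miR-200b (-0.16) and miR-375 (-0.13) changed sign with the median Ct as normalizer (0.04 and 0.07). The members' median was 0.04 and their median absolute change 0.16, against -0.07 and 0.25 for all assays.

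**Figure D3:**
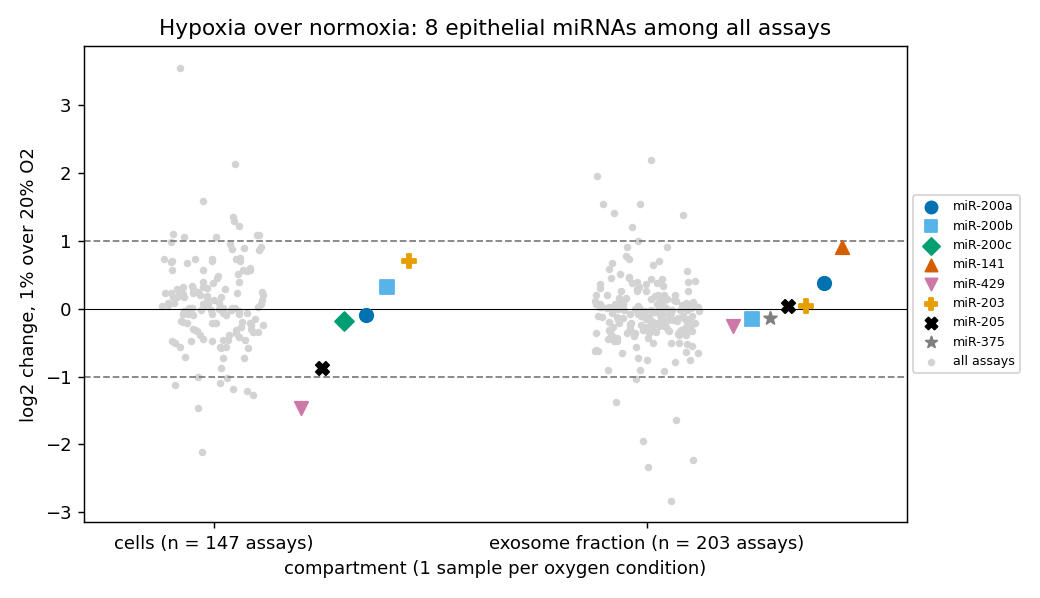
Log2 change at 1% over 20% oxygen (vertical axis) in cells and in the exosome fraction, with grey points for all assays under Ct 35 in both samples and coloured symbols for the epithelial miRNAs; dashed lines mark 2-fold. In cells miR-429 lies at -1.47, beyond the line, and in the exosome fraction every member lies between -0.25 and 0.91.

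The response to oxygen was then set against itself in the 2 compartments for the 5 members seen in all 4 samples. The log2 change in the exosome fraction minus that in cells was 1.21 for miR-429, 0.92 for miR-205, 0.48 for miR-200a, -0.48 for miR-200b and -0.67 for miR-203. Only miR-429 differed by at least 2-fold, in the direction of a higher response in the exosome fraction, against 5.80% of 138 assays, and none differed in the other direction, against 10.1%. With the median Ct as normalizer in both compartments miR-205 passed as well (1.10). For miR-429, miR-205, miR-203 and miR-200b the cells held the change larger in size, and the exosome fraction stayed within 1.19-fold. For miR-200a the larger of its changes was in the exosome fraction.

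Among non-member assays, the 2 with the most similar oxygen profile were found for each of these 5, as the distance in cycles over the 4 samples after removing each compartment's mean. They were miR-195 (0.02) and miR-574-3p (0.06) for miR-200b, miR-21 (0.13) and miR-29c (0.16) for miR-200a, and miR-197 (0.15) and miR-185 (0.28) for miR-429. For miR-203 they were miR-204 (0.04) and miR-155 (0.06), and for miR-205 miR-23a (0.11) and miR-221 (0.17). With 2 oxygen levels such a profile holds 1 change per compartment.

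Other miRNAs of epithelia and of the epithelial-mesenchymal transition gave these values. Of 8 further epithelial miRNAs, 5 were seen in all 4 samples, with a median log2 change of 0.59 in cells and -0.05 in the exosome fraction. In that list miR-31 had the lowest Ct in cells (29.99 and 29.94), and miR-194, of intestine and liver, was 4.36-fold higher in hypoxic cells (Ct 34.97 and 32.84), the only one past 2-fold among the 5. Its intestinal partner miR-215 was seen at 1% oxygen only, in cells at 33.98 and in the exosome fraction at 28.07. Of the cluster of miR-183, miR-96 and miR-182, miR-182 was at the ceiling in all 4 samples. Of 10 miRNAs that act in the transition, 9 were seen in all 4 samples, with medians of 0.23 in cells and 0.02 in the exosome fraction. miR-222 had the lowest Ct (24.91 and 24.61 in cells), and miR-221 was the only one past 2-fold, 2.04-fold lower in hypoxic cells, while miR-10b was at the ceiling throughout.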

How the data were processed

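The authors' deposited table holds a threshold cycle (Ct) per well of TaqMan miRNA Array A cards, not normalized: 384 wells, of which 377 are human miRNA assays. Per the labels' protocols, only exosome products were pre-amplified. The origin of the ceiling of 35 is not stated there. A second table gives the authors' ratio of hypoxia over normoxia, made with Data Assist Software 3.1 per the series' design text; for the members the log2 of that deposited ratio differed from the recomputed value by at most 0.000171. Log2 changes were computed with Python 3.11.15 and pandas 2.3.3 as the negative difference of Ct normalized to the mean of 4 U6 wells (cells) or the spike-in (exosome fraction), over assays under Ct 35 in both samples. Compartments were compared after centring each sample on its median Ct over assays under 35 in all 4 samples. Only the log2 change between oxygen levels was tested on simulated data, with large planted changes in assays away from the ceiling. The comparison of compartments was not tested in this way. Ct values carry no counts or depth, so no counting interval applies.

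The members and lists were chosen with earlier results of these data known. Named were all members, controls, the 2 nearest profiles per member, and list members past 2-fold or with the lowest Ct; any other assay was named after its values were seen. Alternatives were other normalizers, scales and Ct limits.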

Additional observations from a re-analysis of the deposited data

Results flagged for a closer look

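The oxygen responses of 3 of the 5 members seen in all 4 samples had opposite signs in cells and in the exosome fraction. Each came from 1 sample per group, and the difference was not tested. The share of all assays with opposite signs was not counted. Over the 138 assays seen in all 4 samples, the median absolute difference between the responses was 0.42. The exosome log2 change minus the cell log2 change was 0.48 for miR-200a (-0.10 in cells, 0.38 in the exosome fraction), -0.48 for miR-200b (0.32 and -0.16) and 0.92 for miR-205 (-0.88 and 0.04). For miR-200b the signs were alike when the median Ct of the sample served as normalizer in the exosome fraction (0.04).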

How the results depend on the processing

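Each group is 1 sample with 1 well per miRNA, so nothing below has a replicate error, and no sample could be left out. No paired analysis was possible because each group has 1 sample. In cells, all log2 changes of the 6 members moved by less than the 0.19 cycles expected between U6 wells of 2 cards, and miR-205 passed 2-fold with RNU44 and RNU48 as normalizers (-1.03). In the exosome fraction the median Ct as normalizer shifted every log2 change by 0.20, giving 1.11 for miR-141, 0.58 for miR-200a, 0.24 for both miR-203 and miR-205, 0.067 for miR-375, 0.041 for miR-200b and -0.055 for miR-429. The response of miR-205 in the exosome fraction minus that in cells became 1.10.

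The comparison of compartments depended most on the scale. At 20% oxygen, the log2 difference of the exosome fraction from cells, with the mean Ct, the median over assays under Ct 32 and the median of the per-assay differences (added after seeing the data) as scale, was 0.66, 0.75 and 0.45 for miR-200a, -1.10, -1.01 and -1.31 for miR-200b, -1.45, -1.36 and -1.66 for miR-429, 1.40, 1.49 and 1.19 for miR-203, and -0.15, -0.065 and -0.37 for miR-205. At 1% oxygen it was 1.32, 1.38 and 1.22 for miR-200a, -1.39, -1.34 and -1.496 for miR-200b, -0.052, 0.0056 and -0.16 for miR-429, 0.92, 0.98 and 0.82 for miR-203, and 0.95, 1.01 and 0.85 for miR-205. The 4-fold differences of miR-429 at 20% and miR-200b at 1% oxygen were thus lost on all 3 scales.

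With Ct under 32 as the limit, 3 members were seen in each cell sample, against 99 and 105 of all 377 assays. Over all assays, the counts past 2-fold with Ct under 32 in both samples were 1 higher and 4 lower in cells, and 2 higher and 0 lower in the exosome fraction. At 1.5-fold, the counts that changed by over 1.5 times were 28 higher in cells and 15 higher and 20 lower in the exosome fraction.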
